A study of Mus musculus with 5 samples.

Results

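A set of 41 genes that copy DNA or supply its nucleotides was followed through the bone marrow (BM) of mice after cyclophosphamide (CTX), an alkylating agent that damages the DNA of dividing cells. The genes were taken by symbol from the gene table, and 41 of 41 symbols were found among 31053 listed genes. Before a cell divides, the origin recognition proteins, Cdc6 and Cdt1 load the Mcm2 to Mcm7 helicase on DNA; Cdc45, the GINS proteins and Mcm10 then switch it on, the primase and the polymerases copy the strands with the sliding clamp Pcna, and ribonucleotide reductase, thymidylate synthase and thymidine kinase supply the nucleotides. In BM these genes are known to be active in dividing precursors of every lineage and to be shut off as neutrophils mature, so their transcripts are widely used as a sign of S phase.

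RNA of single cells was read in 5 libraries, all of BALB/c mice aged 4 to 8 weeks. Whole BM, labelled CD45+ mononuclear cells, came from untreated mice (naive BM), from mice 2 days after 150 mg/kg CTX given intraperitoneally (D2 CTX BM) and from mice 7 days after the same dose (D7 CTX BM), with 3 mice pooled in each. CD11b+Ly6Chi monocytes were sorted from BM of naive mice and of mice given 150 mg/kg CTX, which the text of the study places 7 days after CTX. The labels give no day for this library and do not say whether 3 mice were pooled for the sorts. Each group was therefore 1 library, no spread between animals could be measured, and no test between conditions was made: values are given with 95% intervals that cover counting error only.

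After filtering, 1891 to 8290 cells and 22279758 to 67921924 unique molecular identifiers (UMIs, each standing for 1 captured transcript) were left per library, and 68 barcodes occurred in more than 1 library. Levels are given as CPM, the UMIs of a gene per 1000000 UMIs. All 41 genes were detected in all 5 libraries, from 983 UMIs in all for Orc1 to 65241 for Pclaf. The median UMIs per cell ranged from 3033.5 in D2 CTX BM to 10299 in naive sorted monocytes, so shares of cells are compared below at 1 fixed depth.

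The summed level of the 41 genes was 3590 CPM in naive BM (3573 to 3608), 1891 CPM in D2 CTX BM (1877 to 1906) and 1529 CPM in D7 CTX BM (1520 to 1538). The D2 library was thus 1.90-fold below naive BM (log2 ratio -0.92, interval -0.94 to -0.91), and the D7 library 2.35-fold below it (log2 ratio -1.23, interval -1.24 to -1.22). Per gene, the interval of the D2 over naive ratio lay below 0 for 40 of 41 genes, against 23.0% of 12671 genes tested, and that of the D7 over naive ratio for 41 of 41, against 75.4% of 12431 genes. In such sums, fewer cells of a type and less RNA per cell cannot be told apart. When erythroid-like and Ms4a1-low B-lineage-like cells, defined from markers further on, were left out, a choice made after seeing the data, the D2 over naive ratio turned to 0.10 and the D7 over naive ratio came to -0.34.

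A gene was counted as higher or lower when it differed by at least 1 log2 unit after 1 CPM was added to each value, where both libraries together held at least 50 of its UMIs. At D2, 15 of the 41 genes were lower than in naive BM and none higher, against 2.98% lower and 6.35% higher among 12671 genes tested. Without the erythroid-like and Ms4a1-low B-lineage-like cells, 0 were lower and 1 was higher. At D7, 30 were lower and none higher, against 22.5% and 0.941% of 12431 genes, and 0 were lower without those cells. Many genes were lower at D7, and the median ratio of all genes tested was -0.57 there and 0.20 at D2. Between the treated libraries, 9 of the 41 were lower at D7 than at D2 and 1, Rrm2, was higher, against 36.0% and 1.02% of 12515 genes. The summed D7 over D2 ratio was -0.31, but relative to the median gene, which stood at -0.76, the 41 genes were 0.45 higher, so the direction of that comparison depends on the scaling.

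**Figure D1:**
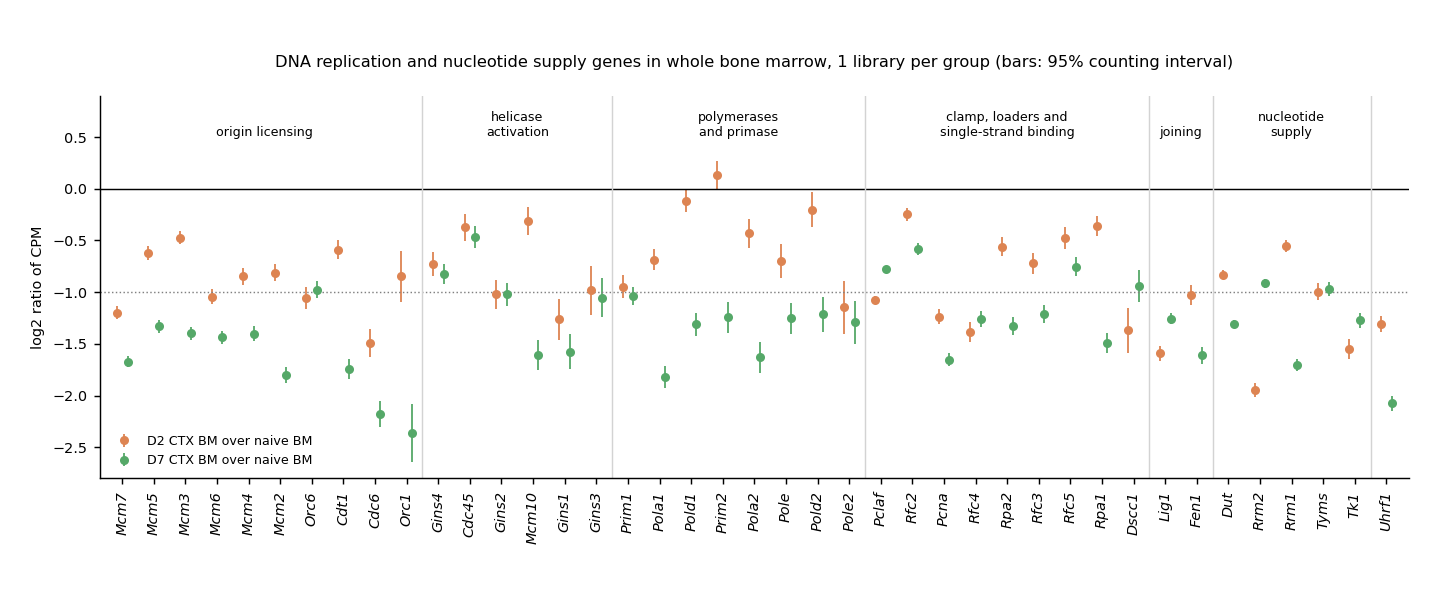
Each pair of points gives 1 gene: the log2 ratio of its CPM in D2 CTX BM (orange) and D7 CTX BM (green) over naive BM, with 95% counting intervals as bars and the genes grouped by role (Uhrf1 last); the dotted line marks 1 log2 unit lower. All D7 points lie below 0, from -2.36 for Orc1 to -0.47 for Cdc45, and at D2 only Prim2 lies above 0.

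Origin licensing genes load the helicase that opens DNA. Mcm7 (ENSMUSG00000029730, chr5:138164583-138172422, minus strand, mm10) was at 188 CPM in naive BM, 81.8 at D2, 58.9 at D7, 82.9 in naive sorted monocytes and 102 in CTX sorted monocytes. For Mcm5 these 5 levels were 119, 77.8, 47.5, 92.4 and 105 CPM. Both genes stepped down from naive to D2 to D7 in whole BM and were higher in the CTX than in the naive sort. Cdc6, the loading factor, and Orc1, a subunit of the origin recognition complex, had the lowest D7 over naive ratios of all members when no CPM was added. Cdc6 (chr11:98907801-98923940) was at 47.0 CPM in naive BM, 16.7 at D2 and 10.4 at D7 (log2 ratio -2.17, interval -2.30 to -2.05), and Orc1 (chr4:108579423-108614833) was at 10.4, 5.80 and 2.03 CPM (log2 ratio -2.36, interval -2.64 to -2.08). All 10 licensing genes were below naive BM at both days, and their sum went from 923 CPM to 508 and 324. Among all genes tested, the interval of the ratio over naive lay below 0 for 23.0% at D2 and 75.4% at D7. The median D7 over D2 ratio of all genes tested was -0.76.

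Helicase activation genes turn the loaded helicase into a working fork. Gins4, a GINS subunit, was at 42.2 CPM in naive BM, 25.5 at D2, 23.9 at D7, 38.2 in naive sorted and 41.5 in CTX sorted monocytes. Cdc45, the helicase cofactor (chr16:18780447-18811987), was at 28.8, 22.3, 20.9, 33.5 and 39.1 CPM, with a D7 over naive ratio of -0.47 (interval -0.58 to -0.36), the smallest distance of any member. The 6 genes summed to 161 CPM in naive BM, 98.8 at D2 and 81.6 at D7.

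Polymerase and primase genes made up the group with the smallest difference at D2, with a summed ratio of -0.49 (interval -0.54 to -0.45), and a larger one at D7 of -1.35 (interval -1.40 to -1.31). Prim1, the catalytic primase subunit, was at 50.8 CPM in naive BM, 26.4 at D2, 24.8 at D7, 33.8 in naive sorted and 39.8 in CTX sorted monocytes. Pola1, the catalytic subunit of polymerase alpha, was at 53.1, 33.0, 15.0, 20.3 and 24.4 CPM. The 3 highest D2 over naive ratios of all members belonged here: 0.13 for Prim2, the large primase subunit (20.9 against 22.9 CPM, interval -0.01 to 0.27), -0.12 for Pold1 (interval -0.22 to -0.01) and -0.20 for Pold2 (interval -0.37 to -0.03), both subunits of polymerase delta. Prim2 was 8.82 CPM at D7, and its D7 over D2 ratio of -1.37 (interval -1.53 to -1.22) was exceeded in size only by that of Orc1, -1.51 (interval -1.84 to -1.19), with Mcm10 at -1.30 (interval -1.46 to -1.14) the third lowest.

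The clamp, its loaders and the single-strand binding proteins held the largest part of the summed level. Pclaf, a clamp-associated factor (ENSMUSG00000040204, chr9:65890237-65903266), was at 475 CPM in naive BM, 226 at D2, 278 at D7, 295 in naive sorted and 357 in CTX sorted monocytes, and alone gave more UMIs than any other member. Unlike the group as a whole, Pclaf was higher at D7 than at D2 (log2 ratio 0.30, interval 0.26 to 0.34). Rfc2, a subunit of the clamp loader (chr5:134581366-134601805), was at 108, 91.0, 72.2, 117 and 132 CPM and had one of the 3 smallest D7 over naive differences (-0.58, interval -0.64 to -0.53), beside Cdc45 and another loader subunit, Rfc5 (-0.76, interval -0.85 to -0.66).

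Lagging strand fragments are trimmed by Fen1 and joined by Lig1. Lig1, the DNA ligase, was at 161 CPM in naive BM, 53.3 at D2, 67.3 at D7, 52.1 in naive sorted and 69.5 in CTX sorted monocytes, the second lowest D2 ratio (-1.59, interval -1.67 to -1.52). Fen1 was at 72.3, 35.5, 23.7, 37.03 and 41.2 CPM. Lig1 was thus lowest at D2 among the whole BM libraries and Fen1 lowest at D7.

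Nucleotide supply genes differed from each other in timing. Dut, which removes dUTP (chr2:125247190-125258608), was at 294 CPM in naive BM, 165 at D2, 119 at D7, 97.9 in naive sorted and 127.5 in CTX sorted monocytes. Rrm2, the cycle-dependent subunit of ribonucleotide reductase (ENSMUSG00000020649, chr12:24708241-24714146), was at 232, 60.2, 123, 102 and 130 CPM. Rrm2 had the lowest D2 over naive ratio of all members, -1.94 (interval -2.01 to -1.87), and the highest D7 over D2 ratio, 1.03 (interval 0.96 to 1.10). Its partner subunit Rrm1 was lower at D7 than at D2, at 148 CPM in naive BM, 101 at D2 and 45.4 at D7. Thymidine kinase Tk1 resembled Rrm2 at D2, with 89.9, 30.7 and 37.2 CPM and a D2 ratio of -1.55 (interval -1.65 to -1.45), and the 3 highest D7 over D2 ratios were those of Rrm2, Dscc1, a clamp-loader subunit (0.43, interval 0.21 to 0.65), and Lig1 (0.34, interval 0.26 to 0.41). Uhrf1, which binds hemimethylated DNA behind the fork (chr17:56303321-56323486), was at 122 CPM in naive BM, 49.5 at D2, 29.1 at D7, 31.6 in naive sorted and 39.8 in CTX sorted monocytes, with the third lowest D7 ratio (-2.08).

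Short words were counted in the promoters of the members. The members were chosen for a role in S phase, so their share of E2F words follows partly from that choice and is a description only. E2F factors switch on S phase genes through short GC-rich words, and the words TTTCCCGC, TTTGGCGC, TTTCGCGC, TTTGCCGC, TTCCCGCC and GCGGGAAA were searched on both strands of RefSeq promoter windows (GRCm38.p6, from 250 bases before to 50 after a gene's start). GCGGGAAA is the reverse complement of TTTCCCGC, and TTCCCGCC overlaps TTTCCCGC. Of the members, 33 had a window, and 18 of them (54.5%) held at least 1 of these words, against 4.46% of 27025 genes. The rest of the 33, Rrm2, Tk1, Tyms and Pcna among them, held none, and 8 members had no window. The 27025 genes were not matched to the members in base content or expression. For CCAAT, the word bound by NF-Y, the shares were 63.6% and 41.1%, and for TTTGAA, the core of the cell cycle homology region, 15.2% and 20.2%. A match describes the letters of a window and not a bound site. Stretches of 120 bases that end before the annotated gene are shown for the 3 members whose word lay nearest the start in its role group and wholly inside such a stretch, 5′ to 3′ on the gene's strand, with the words in capitals. They show where the words sit in these genes.
Mcm6, a helicase subunit, chr1:128359706-128359825, minus strand: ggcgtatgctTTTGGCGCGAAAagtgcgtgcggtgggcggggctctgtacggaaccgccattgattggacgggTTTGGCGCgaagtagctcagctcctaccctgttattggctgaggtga
Rrm1, the large subunit of ribonucleotide reductase, chr7:102441575-102441694, plus strand: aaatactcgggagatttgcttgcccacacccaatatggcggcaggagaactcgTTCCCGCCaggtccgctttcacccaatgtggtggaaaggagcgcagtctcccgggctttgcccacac
Uhrf1, the reader of hemimethylated DNA, chr17:56303201-56303320, plus strand: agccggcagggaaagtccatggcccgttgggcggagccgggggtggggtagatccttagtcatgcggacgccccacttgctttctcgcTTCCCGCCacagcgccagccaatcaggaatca

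The Mcm6 stretch held 3 matches, of which TTTGGCGC and the reverse complement of TTTCGCGC overlap in its first run of capitals. The match nearest the RefSeq start ended 39 bases before it in Mcm6, 40 in Uhrf1 and 59 in Rrm1. In whole BM the D2 over naive ratios of these genes were -1.04, -1.31 and -0.55 and the D7 over naive ratios -1.44, -2.08 and -1.70 in that order, so genes with such a word differed among themselves.

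To see which cells held the transcripts, cells were gated by the UMIs of marker genes, none of which is a member or a cell cycle gene, and the suffix -like is used because the classes rest on markers alone. Kit+ cells carried Kit, Cd34 or Gata2. GMP-like cells carried the azurophil granule genes Mpo, Elane, Prtn3 and Ctsg, and monocyte-committed progenitor-like (MCP-like) cells carried these with Ccr2, Csf1r, F13a1 or Ms4a6c. Kit was at 54.7 CPM in the GMP-like and 4.21 CPM in the MCP-like cells of naive BM, against 124 CPM in Kit+ cells. The MCP-like gate asked for neither Kit nor Cd34, so it can hold monocytes with azurophil transcripts as well as progenitors. The study calls monocytes that express Mpo, Elane, Prtn3 and Ctsg neutrophil-like monocytes. Erythroid-like cells carried erythroid genes such as Klf1, Car1 and Car2, or hemoglobin genes, and B-lineage-like cells Cd79a, Cd79b and Ebf1, split into Vpreb1/Igll1-high, other Ms4a1-low and Ms4a1+ cells. Mature neutrophil-like cells, which do not divide, gave the background level, at 241 CPM in naive BM, 174 CPM at D2 and 171 CPM at D7.

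In naive BM, erythroid-like cells were 7.996% of the cells and held 42.6% of the UMIs of the 41 genes, although the label names CD45+ cells and red cells had been lysed. With both Ms4a1-low B-lineage-like classes, 29.3% of the cells held 70.6% of these UMIs, and 38.0% of the UMIs of all genes. At D2 the same 3 classes were 11.8% of the cells and held 13.4% of the UMIs of the 41 genes and 9.90% of all UMIs. Kit+ cells, 3.102% of the cells, held 30.4% of the UMIs of the 41 genes, but they were also rich in UMIs. Kit+, GMP-like and MCP-like cells together were 4.10% of the D2 cells. They held 20.2% of all UMIs and 42.8% of those of the 41 genes. At D7 neutrophil precursor-like cells (Fcnb, Camp, Ltf, Ngp, Chil3 and Lcn2) held the largest part, 45.2% in 39.1% of the cells, while erythroid-like cells held 3.15% in 0.302% of the cells. Cells that met no gate were 3.74% of the cells at D2 and held 12.7% of these UMIs. The class with the largest part of the replication transcripts was thus erythroid-like in naive BM, Kit+ at D2 and neutrophil precursor-like at D7.

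**Figure D2:**
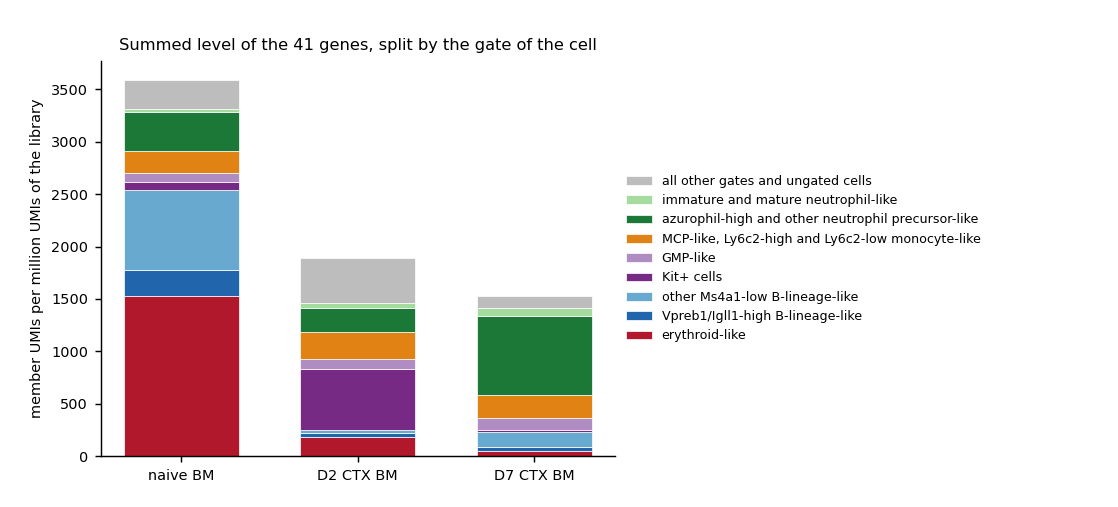
Bars give the summed level of the 41 genes in CPM in each whole BM library, 1 library per bar, and colours split it by the gate of the cell that held the UMIs. The red and blue segments (erythroid-like and Ms4a1-low B-lineage-like) form most of the naive bar of 3590 CPM, dark purple (Kit+) is the largest segment at D2 and dark green (azurophil-high and other neutrophil precursor-like) at D7.

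The class shares of all UMIs and the levels within classes were exchanged between libraries in turn. A class share of UMIs depends on both the number of its cells and their UMIs per cell. With the class levels of naive BM and the class shares of UMIs of D2 CTX BM, the summed level would be 2197 CPM, and with the naive shares and the D2 levels 2080 CPM, where 3590 CPM was measured in naive BM and 1891 CPM at D2. For D7 the corresponding values were 1582 CPM with the D7 shares and naive levels and 3723 CPM with the naive shares and D7 levels, where 1529 CPM was measured. At D7 the class shares of UMIs with naive levels thus gave a value close to the measured one, whereas at D2 both the shares and the levels differed. Numbers of cells, UMIs per cell and the mix inside a class were not told apart.

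Within classes, the level at D2 was lower in erythroid-like and B-lineage-like cells and higher in Kit+ and GMP-like cells. Intervals of class levels and ratios treat UMIs as independent and leave out the spread between cells, so they are too narrow, most of all in classes of few cells. In the other Ms4a1-low B-lineage-like class it was 5353 CPM in naive BM (1240 cells), 741 CPM at D2 (471 cells) and 7762 CPM at D7 (125 cells), which gave log2 ratios over naive of -2.85 (interval -2.95 to -2.76) and 0.54 (interval 0.50 to 0.57). At D2, 37 of 40 genes tested in this class were lower, against 10.6% of 8747 genes. At D7, 1 member, Gins2, was higher, against 0.935% of 8560 genes. Rrm2 was at 343 CPM in the naive cells, 6.26 CPM at D2 (8 UMIs) and 487 CPM at D7, and Pclaf at 1195, 37.6 and 1695 CPM. Pold1 had the smallest D2 difference, 88.1 against 63.4 CPM (log2 ratio -0.47, interval -0.83 to -0.14). The mix within this class moved too: Vpreb1, a pre-B cell gene, was at 163 CPM in naive BM, 39.9 CPM at D2 and 362 CPM at D7, and its part in the result was not tested.

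The Vpreb1/Igll1-high class stood at 5370 CPM in naive BM, 2358 CPM at D2 and 5870 CPM at D7, with 18 of 37 genes tested lower at D2 against 6.76% of 6346 genes. In erythroid-like cells the level was 7944 CPM in naive BM (568 cells), 4145 CPM at D2 (135 cells) and 6954 CPM at D7 (25 cells), with a D2 over naive ratio of -0.94 (interval -0.98 to -0.90) and 16 of 41 genes lower against 6.68% of 8438 genes. Tk1 had the lowest ratio there (268 against 70.6 CPM, log2 ratio -1.93, interval -2.22 to -1.65), and Pold1 went the other way (43.0 against 58.3 CPM, 0.44, interval 0.09 to 0.77). The naive and D7 cells were alike in depth, with median UMIs of 12782 and 15155, whereas the D2 erythroid-like cells had 2981. Klf1, an erythroid factor, was at 355, 177 and 395 CPM in the naive, D2 and D7 cells of this class, so it too was lowest at D2, and its part in the result was not tested.

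Kit+ cells stood at 3178 CPM in naive BM (103 cells), 4106 CPM at D2 (190 cells) and 2885 CPM at D7 (61 cells), giving log2 ratios over naive of 0.37 (interval 0.32 to 0.42) and -0.14 (interval -0.22 to -0.06). At D2, 4 of the 41 genes were higher, against 4.79% of 8640 genes, and none lower. The 4 genes were Cdc45 (12.9 against 40.0 CPM, log2 ratio 1.63, interval 0.87 to 2.50), Rrm2 (43.9 against 97.8 CPM, 1.16, interval 0.74 to 1.60), Rrm1 (111 against 239 CPM, 1.11, interval 0.84 to 1.38) and Mcm10 (24.1 against 49.8 CPM, 1.05, interval 0.48 to 1.67). Rrm2, which had the lowest D2 ratio of all members in whole BM, was thus higher in the D2 than in the naive Kit+ cells. Lig1 was lower there (145 against 119 CPM, -0.29, interval -0.54 to -0.03). Mpo, the leading granule gene of GMPs, was at 429 CPM in the naive and 1273 CPM in the D2 Kit+ cells, and its part in the result was not tested.

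GMP-like cells were at 2666 CPM in naive BM (117 cells), 3328 CPM at D2 (32 cells) and 2300 CPM at D7 (320 cells). Against naive cells the D2 ratio was 0.32 (interval 0.25 to 0.39) and the D7 ratio -0.21 (interval -0.27 to -0.16). Counted by cells instead of UMIs, the D2 difference in share given further on was 10.6 points, with an interval that spans 0 (-8.94 to 27.4). At D2, 3 of 34 genes tested, Mcm10, Prim2 and Rrm1, were higher, against 282 of 4701 genes, so the count was near the share over all genes. The highest of them, Mcm10, had a ratio of 1.85 (interval 0.99 to 2.78, from 16 naive and 42 D2 UMIs). Relative to the median gene of that class, which was 0.21 higher at D2, the difference of the summed level came to 0.11.

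**Figure D3:**
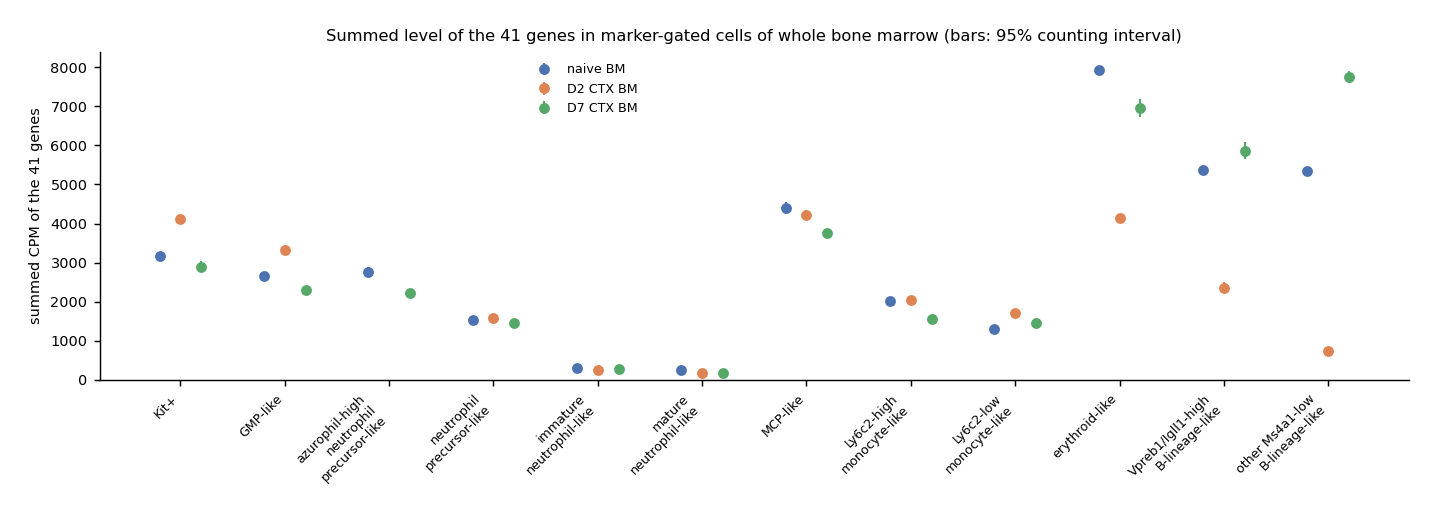
Points give the summed CPM of the 41 genes in each gated class of naive BM (blue), D2 CTX BM (orange) and D7 CTX BM (green), with 95% counting intervals as bars; classes under 20 cells are left out. Erythroid-like and B-lineage-like cells dip at D2, Kit+ and GMP-like cells are highest at D2, and mature neutrophil-like cells lie at 171 to 241 CPM in all 3 libraries.

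From neutrophil precursor-like to immature to mature neutrophil-like cells the level was lower at each step in all 3 libraries. Neutrophil precursor-like cells were at 1521 CPM in naive BM (1205 cells), 1574 CPM at D2 (324 cells) and 1460 CPM at D7 (3244 cells), so that the class with the largest part of the D7 transcripts had about the naive level per UMI. The D7 over naive ratio of -0.06 (interval -0.09 to -0.03) turned to 0.09 relative to the median gene. Azurophil-high neutrophil precursor-like cells, which carried Mpo, Elane, Prtn3 and Ctsg beside the neutrophil precursor genes, were lower at D7, at 2765 CPM in naive BM (59 cells) and 2216 CPM at D7 (175 cells; log2 ratio -0.32, interval -0.40 to -0.24). At D2 this class held 8 cells and got no ratio. Immature neutrophil-like cells (Mmp8 and Retnlg) were at 294, 235 and 283 CPM, and mature ones at the background level given above. Pclaf in naive BM was at 314 CPM in precursor-like, 19.1 CPM in immature and 16.5 CPM in mature neutrophil-like cells. Rfc2 did not follow this course: it was at 52.8 CPM in precursor-like, 59.1 CPM in immature and 81.1 CPM in mature cells (67.6 to 96.4), and held 33.6% of the UMIs of the 41 genes in mature neutrophil-like cells of naive BM, 40.1% at D2 and 37.7% at D7.

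On the monocyte path, MCP-like cells had the highest level of the myeloid classes, 4396 CPM in naive BM (61 cells), 4216 CPM at D2 (29 cells) and 3746 CPM at D7 (120 cells). Ly6c2-high monocyte-like cells were at 2002 CPM (396 cells), 2044 CPM (105 cells) and 1555 CPM (577 cells), with ratios over naive of 0.03 at D2 (interval -0.03 to 0.09) and -0.36 at D7 (interval -0.41 to -0.32). The D2 ratios of the MCP-like (-0.06) and Ly6c2-high cells were small and turned under some alternatives. In Ly6c2-high cells at D2, 2 of 35 genes tested were higher and 1 lower, near the shares of 3.93% and 1.63% of 7306 genes. Within this D2 sum, Rrm2 was lower (120 against 44.9 CPM, log2 ratio -1.42, interval -1.83 to -1.03) and Prim2 higher (5.33 against 26.4 CPM, 2.31, interval 1.43 to 3.25, from 16 and 37 UMIs). Ly6c2-low monocyte-like cells were at 1298, 1710 and 1441 CPM, but their D2 over naive ratio of 0.40 turned to -0.32 with doubled gate thresholds.

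DNA synthesis was not measured, so cells were counted by their transcripts. At 1 depth, 2000 UMIs were drawn from each cell, shallower cells were left out, and cells with at least 5 UMIs of the 41 genes were counted. Of mature neutrophil-like cells, 0 of 396 reached this in naive BM, so that a share of up to 0.758% is allowed by the count of 0, 0 of 608 at D2 (up to 0.493%) and 0.209% at D7, so the background of the measure was low. The highest naive shares were in erythroid-like cells (85.1%, 81.5 to 88.2), MCP-like cells (74.5%, 60.4 to 85.7) and GMP-like cells (55.05%, 45.2 to 64.6). Without thinning, 84.2% of all naive erythroid-like cells, 86.9% of the MCP-like and 91.5% of the GMP-like cells held 5 such UMIs.

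At D2 the share in erythroid-like cells was 34.1%, 51.0 percentage points below naive (interval of the difference -60.6 to -39.8), and that in the other Ms4a1-low B-lineage-like class 2.29% against 35.9% in naive BM, a difference of -33.7 points (interval -36.8 to -30.1). In Kit+ cells it was 65.2% at D2 against 45.7% in naive BM, 19.4 points higher (interval 7.10 to 31.2, and 6.82 points with at least 10 UMIs of the 41 genes), with medians of 23277 and 8581 UMIs per cell before thinning. GMP-like cells were at 65.6% against 55.05% (difference 10.6, interval -8.94 to 27.4) and MCP-like cells at 77.8% against 74.5% (difference 3.27, interval -17.8 to 21.0), and with at least 10 UMIs of the 41 genes the differences turned to -5.85 and -8.06 points, so neither difference was larger than counting error. At D7, Kit+ cells were at 26.7%, 19.1 points below naive (interval -32.9 to -3.38), GMP-like cells at 38.1%, 16.9 points below (interval -27.3 to -6.05), and the other Ms4a1-low B-lineage-like cells at 69.5%, 33.6 points above (interval 23.7 to 42.1). The Kit+ difference shrank to -0.816 points with at least 10 UMIs of the 41 genes, and the GMP-like difference to -2.73 points at 1000 UMIs per cell. Neutrophil precursor-like cells were at 19.1% in naive BM, 21.6% at D2 and 22.9% at D7, which was 2.57 points above naive at D2 (interval -2.23 to 7.87) and 3.79 points above at D7 (interval 1.03 to 6.41, and 1.04 points with at least 10 UMIs).

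**Figure D4:**
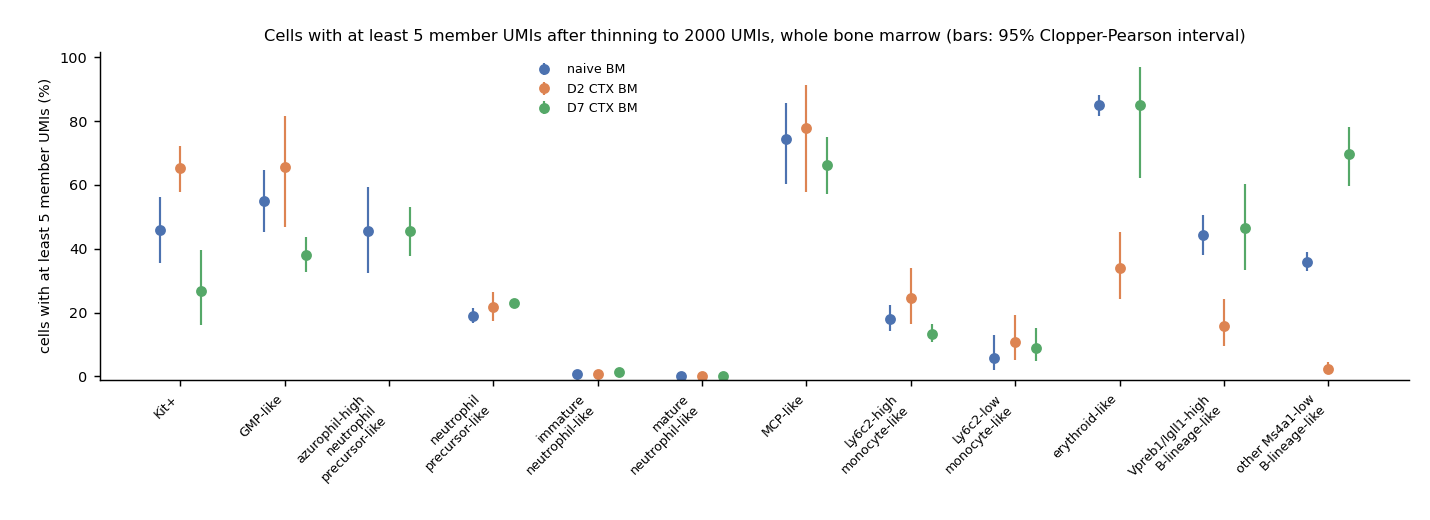
Points give the percentage of cells with at least 5 UMIs of the 41 genes among cells thinned to 2000 UMIs, by class and whole BM library, with 95% Clopper-Pearson intervals as bars. Shares are lower from neutrophil precursor-like (19.1% to 22.9%) to mature neutrophil-like cells (at most 0.209%), and the D2 points are lowest in erythroid-like and B-lineage-like cells but highest in Kit+ cells.

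Among sorted monocytes the summed level was 1947 CPM in the naive (1929 to 1966) and 2299 CPM in the CTX library (2282 to 2317), a log2 ratio of 0.24 (interval 0.22 to 0.26). The median gene was 0.04 higher. None of the 41 genes differed by 1 log2 unit, against 0.337% higher and 0.909% lower of 10673 genes, and 38 of 41 lay above 0, against 60.3% of these genes. The highest ratios were those of Mcm10 (12.4 against 17.4 CPM, 0.49, interval 0.27 to 0.70), Lig1 (0.42, interval 0.31 to 0.52) and Tk1 (0.41, interval 0.29 to 0.53). The 3 genes below 0 were Orc1 (3.91 against 2.83 CPM, -0.46, interval -0.92 to -0.01), Pcna, the clamp itself (87.97 against 74.9 CPM, -0.23, interval -0.32 to -0.14), and Pole2 (-0.05, interval -0.33 to 0.23).

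The difference was not spread evenly over the sorted cells. MCP-like cells were alike, at 4476 CPM in the naive (125 cells) and 4456 CPM in the CTX sort (216 cells; log2 ratio -0.01, interval -0.04 to 0.03). In these sorts the name covers CD11b+Ly6Chi cells with monocyte and azurophil transcripts, and whether they are progenitors was not tested. Ly6c2-high monocyte-like cells were at 1781 CPM (1364 cells) and 2045 CPM (1743 cells; 0.20, interval 0.18 to 0.22), and Ly6c2-low ones at 762.5 CPM (326 cells) and 1255 CPM (443 cells; 0.72, interval 0.64 to 0.79). Both libraries were sorted as Ly6Chi, so Ly6c2-low here names cells with few Ly6c2 UMIs and not cells low in Ly6C protein. In the Ly6c2-low class 7 of 34 genes tested were higher, against 1.37% of 7761 genes: Uhrf1 (4.29 against 19.3 CPM), Tyms (21.1 against 52.8 CPM), Mcm7 (19.7 against 48.8 CPM), Rrm2 (23.2 against 57.6 CPM), Cdc45, Mcm10 and Mcm6. This ratio depended on the gate and came to 0.23 with halved and 0.52 with doubled thresholds. Pcna was lower in the CTX cells of all 3 classes, with log2 ratios of -0.31 in MCP-like, -0.25 in Ly6c2-high and -0.25 in Ly6c2-low cells, of which the last interval spans 0.

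At 2000 UMIs, cells with at least 5 UMIs of the 41 genes were 76.0% of MCP-like cells in the naive and 77.3% in the CTX sort (difference 1.22 points, interval -7.87 to 11.01), 18.2% and 22.6% of Ly6c2-high cells (difference 4.43, interval 1.55 to 7.27) and 4.28% and 10.9% of Ly6c2-low cells (difference 6.65, interval 2.71 to 10.5). With at least 10 UMIs of the 41 genes these differences were -6.23, 1.72 and 3.28 points. MCP-like cells were 6.61% of the naive and 8.42% of the CTX sorted cells. Over the 4 classes with enough cells (MCP-like, both monocyte-like classes and ungated cells), 1960 CPM was measured in the naive sort. With naive class levels and the class shares of UMIs of the CTX sort it would be 2015 CPM, and with CTX levels and naive shares 2224 CPM.

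**Figure D5:**
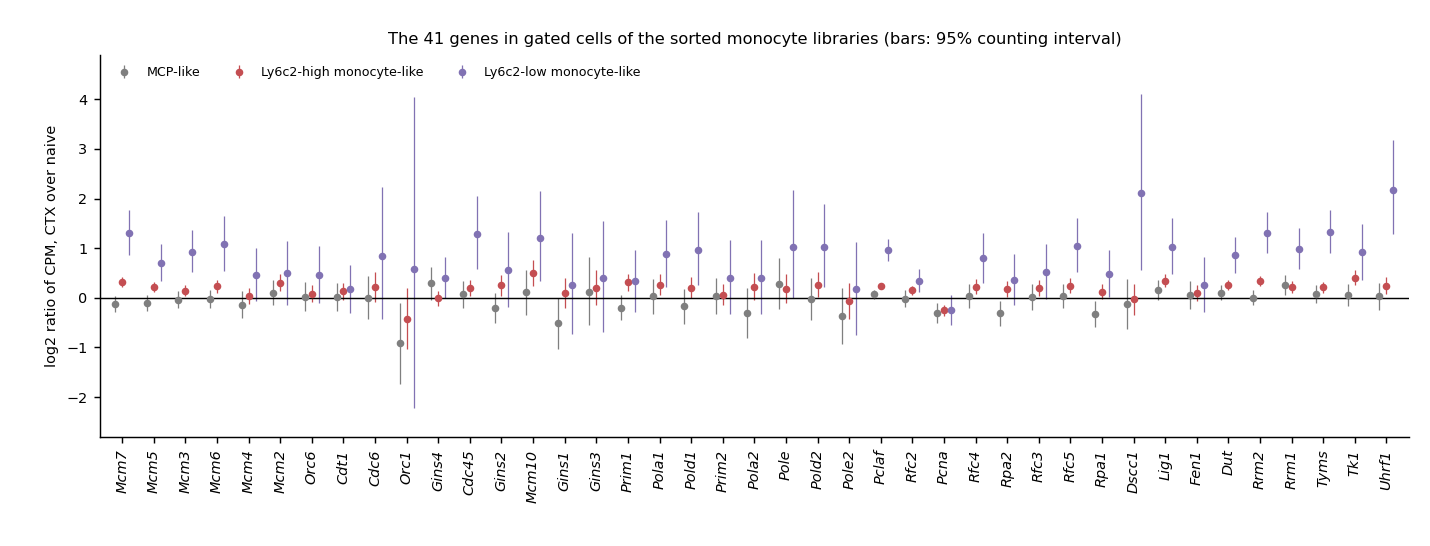
Points give the log2 ratio of CPM, CTX over naive, of each of the 41 genes in MCP-like (grey), Ly6c2-high (red) and Ly6c2-low (purple) monocyte-like cells of the sorted libraries, with 95% counting intervals. Grey points scatter around 0, red points lie near their summed ratio of 0.20 and purple points near 0.72 with wider intervals; Pcna is below 0 in all 3 classes.

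Other genes of the same processes were described by their counts, to be read against the shares of all genes tested given above (2.98% lower and 6.35% higher at D2, 22.5% lower at D7). Of 34 further replication factors, 5 were lower at D2 and none higher (median ratio -0.63), from Asf1b, a histone chaperone (-1.33), to Orc4 (0.27), and 16 were lower at D7 (median -0.95). Of 31 further nucleotide synthesis genes, none was higher by 1 log2 unit at D2, the highest ratio was that of Samhd1, a dNTP hydrolase (0.95), and the median was 0.05, against 0.20 over all genes tested. At D7, 18 were lower, led by Mthfd1, a folate enzyme (-2.20). Of 25 mitosis genes, 4 were lower at D2, led by the proliferation marker Mki67 (-1.25), and 6 at D7, a share near that of all genes. All 25 had ratios below 0 at both days, with medians of -0.73 at D2 and -0.82 at D7. The medians of all genes tested were 0.20 and -0.57. In the sorted libraries, all 34 further replication factors, all 25 mitosis genes, 28 of the 31 nucleotide synthesis genes and 20 of the 26 regulators of the G1 to S step were above 0 in the CTX over naive ratio, against 60.3% of all genes. Of these lists, 1 gene differed by 1 log2 unit there, Nme2, a nucleoside diphosphate kinase with a close paralog (-2.04), and Cdkn1a was the lowest of the regulators (-0.73). Rrm2b, the reductase subunit induced on DNA damage, was at 45.001 CPM in naive BM, 52.0 CPM at D2 and 17.4 CPM at D7. Its D2 over naive ratio of 0.21 (interval 0.12 to 0.30) was that of the median gene, 0.20, where Rrm2 was below naive BM. By class, the D2 ratio of Rrm2b was below 0 in Kit+, GMP-like, neutrophil precursor-like, MCP-like and Ly6c2-high cells, with intervals that span 0. It was above 0 in the other classes with a ratio. In the other Ms4a1-low B-lineage-like cells Rrm2b was at 174 CPM in naive BM and 379 CPM at D2 (log2 ratio 1.12, interval 0.97 to 1.28), where Rrm2 was at 343 and 6.26 CPM.

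Of 26 regulators of the G1 to S step, 4 were higher and 4 lower at D2, against 6.35% and 2.98% of all genes tested. At D7, 15 were lower, against 22.5% of all genes tested. Cdkn1a, a p53 target that inhibits cyclin-dependent kinases, was the highest at D2 and the lowest in the D7 over D2 comparison. It was at 14.8 CPM in naive BM, 159 CPM at D2 and 12.8 CPM at D7, a D2 over naive ratio of 3.42 (interval 3.31 to 3.54). Cdkn1a was higher at D2 in all classes with a D2 ratio, as in erythroid-like cells (3.27 against 255 CPM, ratio 6.28, interval 5.74 to 6.88) and Kit+ cells (35.3 against 244 CPM, ratio 2.79, interval 2.34 to 3.27). The Cdkn1a ratio was smallest in Vpreb1/Igll1-high (0.79, interval 0.17 to 1.37) and other Ms4a1-low B-lineage-like cells (1.26, interval 0.75 to 1.76). In Ly6c2-high monocyte-like cells it was 3.22 (interval 2.98 to 3.47). The naive levels behind these ratios were unlike, with 29 UMIs in erythroid-like cells and 37.8 CPM in Vpreb1/Igll1-high cells. Any link between Cdkn1a and the replication genes was not tested. Ccne1, cyclin E1, was the lowest at D2 (56.6 against 11.6 CPM, -2.29, interval -2.44 to -2.13). E2f1, the factor whose words are found in the promoters above, was at 29.2, 14.8 and 14.0 CPM in naive, D2 and D7 BM. In Kit+ cells E2f1 was at 31.0 CPM in naive BM and 31.3 CPM at D2 (0.02, interval -0.52 to 0.58). It was lower at D2 in erythroid-like cells (63.4 against 24.6 CPM, -1.37, interval -1.88 to -0.89). In other Ms4a1-low B-lineage-like cells it was at 42.0 against 3.13 CPM (-3.74, interval -5.63 to -2.37, from 4 UMIs at D2). Its interval spanned 0 in the other classes with a D2 ratio.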

How the data were processed

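Per the file headers and labels, the authors deposited filtered matrices of raw UMI counts per gene and barcode, made with Cell Ranger 3.1.0 on mm10 from 10x 3′ libraries, with no normalization. Cells with at least 200 genes and under 20% mitochondrial UMIs were kept, as in the study's methods, which left 25975 of 28063 barcodes. UMIs were summed per library or class and divided by their total (CPM), with exact Poisson intervals for levels, exact conditional intervals for ratios, Clopper-Pearson intervals for shares and Newcombe intervals for differences of shares, all at 95%. Gates compared summed marker UMIs per 10000 with thresholds set on the marker distributions, and a class under 20 cells in either library got no ratio. Doublets were kept; Scrublet in scanpy 1.11.5 served as an alternative. Named were the 2 members with the most UMIs in each role group, the 3 highest and 3 lowest ratios per comparison and, in the other lists, the extremes with Cdkn1a, Rrm2b and E2f1; members named within classes were chosen after their values were seen. The members and lists were chosen with earlier results of these data known. Intervals cover counting error only, and those of levels and ratios count UMIs and leave out the spread between cells. Python 3.11.15, numpy 2.4.6, scipy 1.17.1 and pandas 2.3.3 were used, and the calculations were tested on simulated data. Gene positions are from GENCODE M21 and promoter windows from RefSeq. A result for 1 gene of the further nucleotide synthesis list is not reported here.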

Additional observations from a re-analysis of the deposited data

How the results depend on the processing

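Each group was 1 library, so no library was left out and no test was run. Leaving out the erythroid-like and Ms4a1-low B-lineage-like cells, leaving out Rfc2 and leaving Pclaf out of the class sums were chosen after seeing the data. No paired analysis was possible because the groups share no replicate numbers beyond a single library each. Doubled thresholds left under 20 cells in the D2 GMP-like and the sorted MCP-like classes and gave no ratio for them. The MCP-like ratios of whole BM and the D7 ratio of azurophil-high neutrophil precursor-like cells also had 7 alternatives, where the D7 over naive ratio of GMP-like cells had 8. The mature neutrophil-like level was not subtracted in the sorted libraries, which held 8 and 5 such cells.

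The summed D2 over naive ratio (-0.92) was -0.96 without the 20 most abundant genes, -1.13 relative to the median gene, -1.29 as a mean of the cells' CPM, -0.90 without Pclaf, -0.90 without predicted doublets, -0.95 without Rfc2 and 0.10 without the erythroid-like and Ms4a1-low B-lineage-like cells. The D7 over naive ratio (-1.23) was, in the same order, -0.80, -0.66, -0.88, -1.32, -1.25, -1.26 and -0.34, and -1.21 with all barcodes. The D7 over D2 ratio (-0.31) turned to 0.17 without the abundant genes, 0.45 relative to the median gene and 0.41 as a mean of cells, and was -0.29 with all barcodes, -0.41 without Pclaf, -0.35 without doublets and -0.44 without the erythroid-like and B-lineage-like cells. The sorted ratio (0.24) was 0.20 relative to the median gene and 0.29 as a mean of cells.

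Genes lower at D2 (15) numbered 9 with 5 CPM added, and genes lower at D7 (30) numbered 9 relative to the median gene; without the erythroid-like and B-lineage-like cells both counts were 0, and 1 gene was higher at D2. Between D7 and D2, the 1 higher gene became 0 with 5 CPM added or without those cells and 5 relative to the median gene, and the 9 lower genes became 2 and 0 with 5 CPM added and relative to the median gene.

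In Kit+ cells the D2 ratio (0.37) was 0.28 with halved thresholds, 0.54 as a mean of cells, 0.42 after subtracting the mature neutrophil-like level and 0.28 relative to the median gene; in GMP-like cells (0.32) it was 0.11 relative to the median gene. In erythroid-like cells (-0.94) it was -0.89 with the stricter cell filter, -1.87 as a mean of cells and -1.12 relative to the median gene. In other Ms4a1-low B-lineage-like cells the D2 ratio (-2.85) was -2.12 with halved thresholds, -2.14 as a mean of cells, -3.17 subtracted, -3.04 relative to the median gene and -2.56 without Pclaf, and the D7 ratio (0.54) was 0.48, 0.80, 0.57 and 0.65 in the first 4 of these and 0.48 without doublets. The D7 ratio of neutrophil precursor-like cells (-0.06) was -0.00695 with halved and -0.11 with doubled thresholds, 0.11 as a mean of cells, -0.00744 without doublets, 0.0107 subtracted and 0.0873 relative to the median gene. That of Ly6c2-high cells (-0.36) was -0.31 with halved thresholds, -0.24 as a mean of cells and -0.28 relative to the median gene. In the sorted libraries, MCP-like cells (-0.01) came to 0.0428 with halved thresholds, Ly6c2-high cells (0.20) to 0.22 halved, 0.35 doubled, 0.25 as a mean of cells and 0.15 relative to the median gene, and Ly6c2-low cells (0.72) to 0.23 halved, 0.52 doubled and 0.58 as a mean of cells.

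The Kit+ share difference at D2 (19.4 points) was 6.82 with at least 10 UMIs, and that of other Ms4a1-low B-lineage-like cells (-33.7) was -24.7 at 1000 UMIs and -28.7 with at least 10 UMIs. With at least 10 UMIs the D7 difference of Kit+ cells (-19.1) was -0.816, and the D2 differences turned in GMP-like (10.6 to -5.85), MCP-like (3.27 to -8.06), Ly6c2-high (6.42 to -7.65) and neutrophil precursor-like cells (2.57 to -0.25). At 1000 UMIs the D7 difference of GMP-like cells (-16.9) was -2.73 and that of neutrophil precursor-like cells (3.79) was 1.27. The sorted MCP-like difference (1.22) turned to -4.21 at 1000 UMIs and -6.23 with at least 10 UMIs. Of 31 class ratios, 20 kept their direction under every alternative run and 11 turned under at least 1. Beside the D7 ratio of neutrophil precursor-like and the sorted ratio of MCP-like cells given above, those that turned were neutrophil precursor-like cells at D2 (-0.17 doubled, -0.21 relative to the median gene) and at D7 over D2 (0.0648 doubled, 0.0230 as a mean of cells, 0.30 relative to the median gene), Ly6c2-low cells at D2 (-0.32 doubled, -0.25 as a mean), at D7 (-0.77 halved, -0.0233 doubled) and at D7 over D2 (0.29 doubled, 0.60 as a mean), MCP-like cells at D2 (0.0396 halved, 0.0245 as a mean), Ly6c2-high cells at D2 (-0.0168 with the stricter cell filter, -0.0247 relative to the median gene), Kit+ cells at D7 (0.16 halved) and Vpreb1/Igll1-high cells at D7 (-0.40 doubled). The cause of these shifts was not tested.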
